A study of Mus musculus with 6 samples.

Results

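The immunoglobulin constant genes and Jchain are 9 of the 32285 genes in the single-cell count matrices of B16-F10 melanoma tumors: the heavy-chain constant genes Ighm, Ighd, Ighg1, Ighg2b, Ighg2c, Ighg3 and Igha, the κ light-chain constant gene Igkc, and Jchain. They were matched to the matrices by gene symbol. B16-F10 is a mouse melanoma cell line, and the tumors grew in female C57BL/6 mice that were 6 to 10 weeks old, the same for both groups. The 3 αPD-1 samples came from mice given 150 μg of antibody to PD-1 3 times per week from day 7 after grafting. The 3 αPD-1 + corin samples came from mice given the same antibody and also 200 μg of corin, an inhibitor of the CoREST chromatin complex, daily from day 6. Each arm had 10 mice, the labels do not tie mice to samples, and the cells were cryopreserved tumor suspensions from which CD45+ cells were taken with magnetic beads. No sample without αPD-1 was analysed here.

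An antibody is made of paired heavy and light chains, and the constant part of the heavy chain sets its isotype. Resting B cells splice one transcript to either Ighm or Ighd, so that they carry IgM and IgD with the same variable region, and after class switching a B cell uses Ighg1, Ighg2b, Ighg2c, Ighg3 or Igha in their place, which is lasting because the DNA in between is removed. Plasma cells secrete the antibody and fill much of their RNA with these transcripts, and Jchain encodes the small protein that joins IgM and IgA units into polymers, although plasma cells of other isotypes transcribe it too. C57BL/6 mice carry Ighg2c where other strains carry Ighg2a, and most mouse B cells use κ rather than λ light chains.

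All 7 heavy-chain genes lie within 1 cluster on the minus strand of chromosome 12 (GRCm39), from Ighm at chr12:113382178-113386350 and Ighd at chr12:113370224-113379944 down to Igha at chr12:113218450-113223856. Ighg3 (chr12:113319844-113324852), Ighg1 (chr12:113288860-113294143), Ighg2b (chr12:113266585-113271553) and Ighg2c (chr12:113248945-113252552) stand between them, Igkc is at chr6:70703419-70703950 on the plus strand, and Jchain is at chr5:88667668-88675750 on the minus strand. The 4 Ighg genes are close relatives, and every isotype count rests on reads of 90 bases being told apart between them. The first 90 bases of their first annotated exon, which encodes the start of the CH1 domain, are shown for this reason, 5′ to 3′ on the coding strand, with capitals at the positions that differ from Ighg1.
Ighg1: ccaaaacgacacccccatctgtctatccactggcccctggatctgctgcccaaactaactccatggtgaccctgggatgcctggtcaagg
Ighg2b: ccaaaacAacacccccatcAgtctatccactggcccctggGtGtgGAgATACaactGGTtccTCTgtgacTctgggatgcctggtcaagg
Ighg2c: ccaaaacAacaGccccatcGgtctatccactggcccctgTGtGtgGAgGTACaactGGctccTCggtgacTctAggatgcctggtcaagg
Ighg3: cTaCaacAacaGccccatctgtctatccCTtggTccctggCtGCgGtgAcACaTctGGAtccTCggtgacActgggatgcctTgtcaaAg
They lie at chr12:113294054-113294143, chr12:113271464-113271553, chr12:113252463-113252552 and chr12:113324763-113324852. Ighg2b, Ighg2c and Ighg3 differ from Ighg1 at 17, 18 and 23 of these 90 positions, and no window of 90 bases within an annotated exon is shared between any of the 9 members, so that a full-length exonic read could be placed on 1 gene.

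The measurements are counts of unique molecular identifiers (UMIs), each of which marks 1 captured RNA molecule. The 6 libraries held 52281422 to 84276739 UMIs in 6433 to 13228 barcodes, and 28865 of 52899 barcodes were kept as cells with 600 to 4000 genes, at most 10% mitochondrial UMIs and no high doublet score. In all, 299 barcode sequences occurred in 2 or more libraries. Clusters were built without any immunoglobulin gene or Jchain and were named from marker genes, so that the members took no part in naming B cells (15 of 15 markers passed in both B clusters, with Cd79a and Ms4a1 among the 10 leading genes of the larger) or plasma cells (15 of 16 markers, with Mzb1, Derl3 and Xbp1 among the 10 leading genes). The αPD-1 samples held 772, 709 and 1072 B cells and 170, 21 and 90 plasma cells, and the αPD-1 + corin samples held 45, 48 and 11 B cells and 4, 4 and 2 plasma cells. These numbers limit every value below: all B cells of the αPD-1 + corin samples together gave 377 heavy-chain constant UMIs, against 13337 for the αPD-1 samples.

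Plasma cells of the αPD-1 samples were nearly all class-switched, mostly to Ighg1. A plasma cell was given an isotype when it held at least 10 heavy-chain constant UMIs and at least 75% of them came from 1 isotype, with Ighm and Ighd counted together as IgM. Of the 281 plasma cells in these samples, 271 were called, 8 were mixed and 2 had too few UMIs. Among the called cells, 153 were Ighg1 (56.5%, 95% Wilson interval 50.5 to 62.2), 69 were Ighg2c (25.5%, 20.6 to 31.0), 40 were Ighg2b (14.8%, 11 to 19.5), 5 were IgM, 2 were Ighg3 and 2 were Igha. The intervals cover counting error only, and cells of 1 sample are not replicates of the treatment.

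The order of the IgG genes differed between samples. In αPD-1 sample 1, 97 of 162 called cells were Ighg1, 37 were Ighg2c and 21 were Ighg2b (59.9%, 22.8% and 13.0%). Sample 3 was close to it, with 49, 23 and 14 of 88 called cells (55.7%, 26.1% and 15.9%). Sample 2 had only 21 called cells, with 7 Ighg1, 9 Ighg2c and 5 Ighg2b (33.3%, 42.9% and 23.8%), and its interval for Ighg1 of 17.2% to 54.6% overlapped those of both other samples. Over the 3 samples the shares were 49.6% ± 14.3 for Ighg1, 30.6% ± 10.7 for Ighg2c and 17.6% ± 5.61 for Ighg2b (SD, n = 3), so that Ighg1 and Ighg2c did not stand apart beyond the spread between samples, and sample 1 held both Ighg3 and both Igha cells. Ighe, the IgE gene and no member, reached 5, 2 and 7 UMIs in all kept cells of the αPD-1 samples and 0 in each αPD-1 + corin sample.

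**Figure D1:**
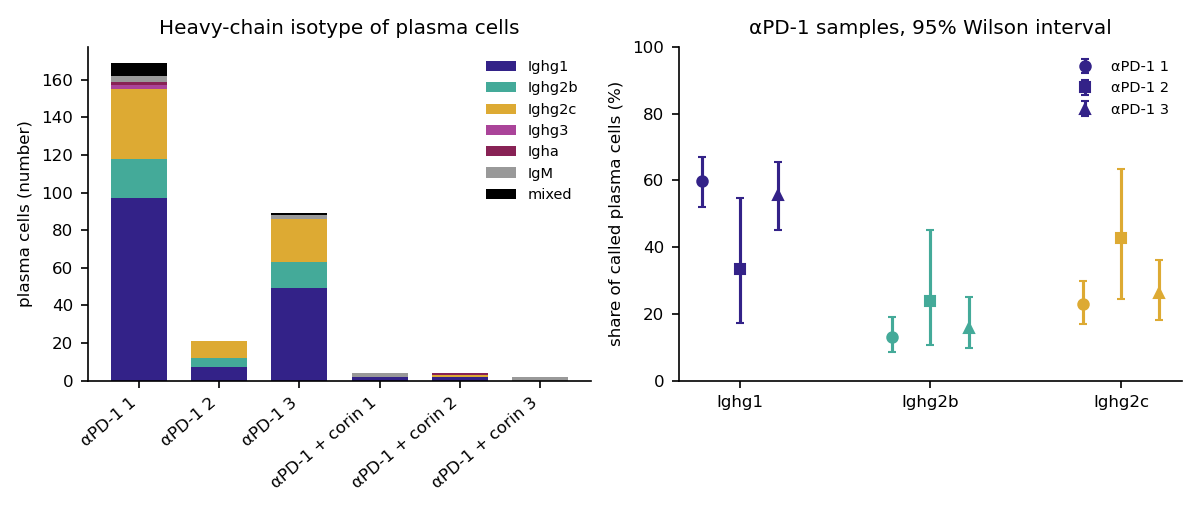
Left, the number of plasma cells of each heavy-chain isotype in each of the 6 samples, as stacked bars that leave out 2 cells with too few UMIs. Right, the share of called plasma cells that were Ighg1, Ighg2b or Ighg2c in the 3 αPD-1 samples, with 95% Wilson intervals; Ighg1 led in samples 1 and 3 and Ighg2c in sample 2, where 21 cells gave wide intervals.

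The αPD-1 + corin samples gave 10 plasma cells, all of them called. Sample 1 held 2 Ighg1 and 2 IgM cells, sample 2 held 2 Ighg1, 1 Ighg2c and 1 Igha cell, and sample 3 held 2 IgM cells. IgM thus made up 2 of 4, 0 of 4 and 2 of 2 cells in these samples, and 3 of 162, 0 of 21 and 2 of 88 called cells in the αPD-1 samples. With 2 to 4 plasma cells per sample no test over samples was run and no difference is drawn from these counts, and 0 Ighg2b cells of 10 still allow a share of up to 30%.

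Most single cells held 1 isotype. The call itself asks for 75% of the heavy-chain UMIs from 1 isotype, and in 246 of the 271 called αPD-1 plasma cells (90.8%) it was at least 95%, with the 8 mixed cells not counted among the 271. All 8 mixed cells combined 2 IgG genes, and 6 of them paired Ighg1 with Ighg2c, for example with 510 and 325 UMIs in 1 cell of sample 1 and with 652 and 765 in 1 cell of sample 3. Their median UMI total was 20706, against 11311 for all plasma cells of the αPD-1 samples. Whether they were doublets was not tested. Ighd, which plasma cells switch off, had a UMI in 45 of the 271 called cells, and Ighm made up most of the small IgM fraction of their heavy-chain UMIs.

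Plasma cells carried the members at high levels. Over the 281 plasma cells of the αPD-1 samples the median was 527 heavy-chain constant UMIs, 282 Igkc UMIs and 181 Jchain UMIs. Immunoglobulin genes of all kinds, with Jchain, made up 34.6%, 33.6% and 29.3% of the UMIs of the median plasma cell in the 3 samples. In B cells the same genes made up 1.10%, 1.06% and 1.04% of all UMIs. Summed over plasma cells, Igkc stood at 24445, 24850 and 30313 CPM (the UMIs of a gene per 1000000 UMIs of the class) and Jchain at 19045, 19116 and 15541 CPM, so that the samples lay closer together on Igkc and Jchain than on Ighg1 and Ighg2c. Ighg1 stood at 26989, 14977 and 27083 CPM, Ighg2c at 11346, 23433 and 15214 CPM, and Ighg2b at 7807, 9655 and 7096 CPM. Ighg3 was at 746, 0 and 6.07 CPM and Igha at 557, 22.7 and 8.09 CPM, highest in sample 1, which held the only cells called for them.

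Jchain was transcribed whatever the isotype. Every one of the 291 plasma cells of all 6 samples had a Jchain UMI, although 262 of the 271 called αPD-1 cells used an IgG1, IgG2b or IgG2c heavy chain, none of which is joined by the J chain protein. Jchain amounted to a median of 35.1 UMIs per 100 heavy-chain UMIs in Ighg1 cells, 40 in Ighg2c cells and 27.1 in Ighg2b cells. Within samples the medians were 36.9, 52.2 and 30.3 for Ighg1, 42.9, 44 and 35.0 for Ighg2c, and 32.5, 27.7 and 22.8 for Ighg2b. Ighg2b cells were the lowest of the 3 in each sample, and the quartiles of the isotypes overlapped.

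The lower ratio of Ighg2b cells went with more heavy-chain RNA in samples 1 and 3 and not in sample 2. Heavy-chain UMIs per 10000 UMIs had medians of 648, 251 and 768 in Ighg2b cells of the 3 samples, against 453, 552 and 447 in Ighg1 cells. Sample 2 contributed 5 Ighg2b cells. Jchain per 10000 UMIs had medians of 210, 64.6 and 155 in Ighg2b cells, 167, 178 and 121 in Ighg1 cells and 205, 196 and 192 in Ighg2c cells. Jchain in Ighg2b cells of samples 1 and 3 was thus above that of Ighg1 cells, and in sample 3 below that of Ighg2c cells. The 5 IgM plasma cells of the αPD-1 samples held less heavy-chain RNA, with a median of 250 UMIs and an immunoglobulin share of 11% of UMIs.

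**Figure D2:**
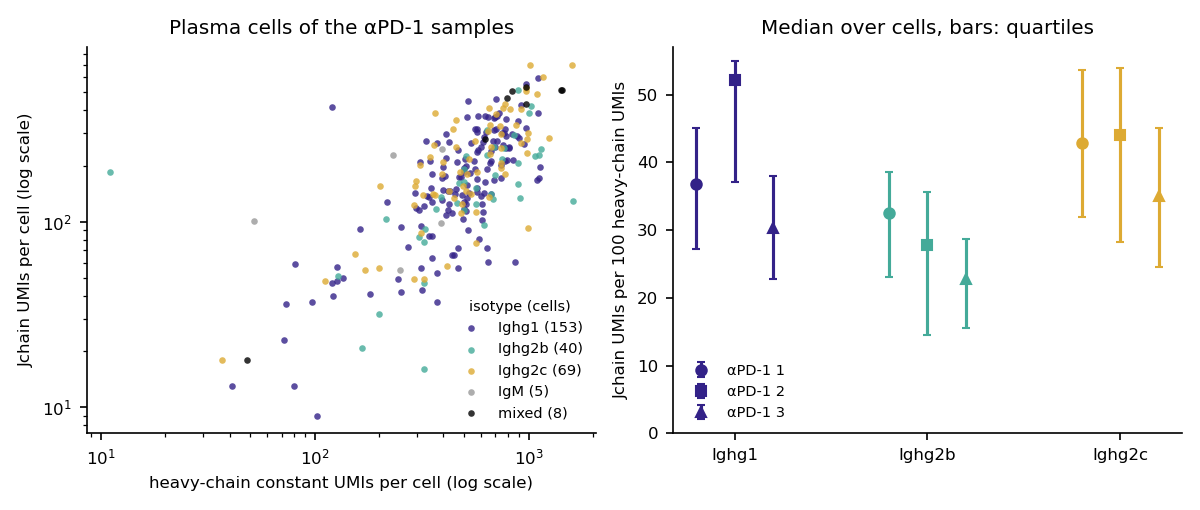
Left, Jchain UMIs against heavy-chain constant UMIs in single plasma cells of the αPD-1 samples, on log scales, colored by isotype and without the Ighg3, Igha and uncalled low-UMI cells. Right, the median Jchain UMIs per 100 heavy-chain UMIs by isotype and sample with the quartiles over cells; Ighg2b had the lowest median in each sample and the ranges overlapped.

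The same variable genes recurred across isotypes. A heavy-chain V gene and a κ V gene could be called in 148, 17 and 77 plasma cells of the αPD-1 samples from UMIs of the germline V genes, which share sequence with their relatives and do not show the junction, so that a shared pair is not proof of a shared clone. Sample 1 held 43 different pairs, of which 20 occurred in more than 1 cell and took in 125 of its 148 cells (84.5%), and 13 occurred with 2 or more isotypes. Sample 3 held 32 pairs, with 60 of 77 cells (77.9%) in 15 repeated pairs and 8 pairs with 2 or more isotypes. The heavy-chain V gene found in most cells was Ighv1-26 in sample 1 (68 cells, 45.9%) and in sample 3 (17 cells, 22.1%).

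Pairs differed in their isotypes. Ighv1-26 with Igkv10-96 occurred in 24 cells of sample 1, of which 7 were Ighg1, 7 were Ighg2b and 10 were Ighg2c. Ighv1-26 with Igkv4-74 occurred in 22 cells of the same sample, of which 18 were Ighg1, 2 were Ighg2c and 2, the only Ighg3 plasma cells among all samples, were Ighg3. In sample 3, Ighv1-66 with Igkv8-21 occurred in 9 cells, all Ighg1, and Ighv5-17 with Igkv8-21 in 8 cells, 3 Ighg1 and 5 Ighg2c. Between samples few pairs recurred: samples 1 and 3 shared 5 pairs (11.6% of the 43 and 15.6% of the 32), and sample 2 shared 1 pair with each. The 9 cells of the αPD-1 + corin samples with a called pair had 9 different pairs.

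Many barcodes rich in immunoglobulin lay above the upper limit of 4000 genes per cell. Counted over all deposited barcodes, with no filter, 280, 36 and 141 barcodes of the αPD-1 samples held at least 100 heavy-chain constant UMIs (4.12%, 0.560% and 2.01%), and 6, 4 and 1 of the αPD-1 + corin samples did (0.0454%, 0.0408% and 0.0104%). The groups did not overlap on this share, and 91, 14 and 35 of the αPD-1 barcodes and 0, 1 and 0 of the others had over 4000 genes. Of the 457 such αPD-1 barcodes, 162, 21 and 86 in the 3 samples are plasma cells already counted. The 440 that could be called held 249 Ighg1 (56.6%), 118 Ighg2c (26.8%), 56 Ighg2b (12.7%), 8 Ighg3, 7 IgM and 2 Igha, and all 8 Ighg3 barcodes came from sample 1.

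B cells, by contrast, used Ighm and Ighd. Of the αPD-1 B cells with at least 2 heavy-chain UMIs and 75% of them from 1 isotype, 2056 of 2066 were IgM and 10 were switched, 5 to Ighg1, 4 to Ighg2c and 1 to Ighg2b. All 76 called B cells of the αPD-1 + corin samples were IgM, which still allows a switched share of up to 3.95%. The share of called B cells that were switched was 0.684%, 0% and 0.670% under αPD-1 alone and 0% in each αPD-1 + corin sample (exact permutation test, two-sided, n = 3 against 3, p = 0.4, adjusted p = 0.56 over 7 values).

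Ighm, the IgM heavy chain, stood in B cells at 1376, 1302 and 1692 CPM under αPD-1 alone and at 1776, 1608 and 2465 CPM under αPD-1 + corin. The groups overlapped, and the difference did not pass the test (log2 fold change 0.23 ± 0.175 SE, edgeR adjusted p = 0.64). Ighd, the IgD heavy chain, stood at 755, 593 and 742 CPM under αPD-1 alone and at 481, 536 and 367 CPM under αPD-1 + corin. All 3 αPD-1 + corin samples were lower, but the change of -0.57 ± 0.214 (log2, SE) did not pass the test over 8001 genes (edgeR adjusted p = 0.154). Across its alternatives the adjusted p for Ighd ranged from 0.00841 to 0.397, and it passed with LogNormalize in place of SCTransform (0.0384) and with cells gated on marker UMIs in place of clusters (0.00841). With that gate 5336 genes were called in B cells, against 154 as reported, and Ighm turned to -1.73 on the log2 scale. Its pass is therefore not particular to Ighd.

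The balance between these 2 splice products, which needs no normalization between samples, moved in the same direction. Ighd made up 35.4%, 31.3% and 30.5% of the Ighm and Ighd UMIs in B cells of the αPD-1 samples, and 21.3%, 25% and 13.0% under αPD-1 + corin. The means were 32.4% ± 2.64 and 19.8% ± 6.17 (SD, n = 3), and no value of one group lay within the other (two-sided exact permutation test, p = 0.1, the smallest that 3 against 3 samples can give, adjusted p = 0.233). The αPD-1 + corin values rest on 29 of 136, 46 of 184 and 7 of 54 UMIs. The B cells came from 2 clusters, of which the smaller held 145, 143 and 156 cells of the αPD-1 samples and 0, 2 and 0 of the αPD-1 + corin samples. In the larger cluster by itself the mean shares were 31.9% and 19.8%, and the Ighd level changed by -0.63 ± 0.213 (log2, SE, edgeR adjusted p = 0.132). The difference ranged from -15.3 to -9.23 percentage points when 1 sample was left out and from -14.0 to -10.6 under the other alternatives.

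The cluster that mixed B cell and T cell markers gave a second set of cells with B cell transcripts, from other barcodes of the same samples. It held 646, 351 and 598 cells under αPD-1 alone and 17, 12 and 9 cells under αPD-1 + corin. There the Ighd share was 30.7%, 30.4% and 30.1% under αPD-1 alone and 25%, 22.5% and 17.4% under αPD-1 + corin. The αPD-1 + corin shares rest on only 7, 9 and 4 Ighd UMIs beside 21, 31 and 19 Ighm UMIs. Single B cells showed the difference as detection of Ighd: a UMI was found in 68.6% ± 1.93 of B cells under αPD-1 alone and in 45.7% ± 15.9 under αPD-1 + corin (SD, n = 3). With each cell thinned to 1000 UMIs the shares were 50.2% ± 2.85 and 39.2% ± 12, and their ranges then overlapped (47.1% to 52.7% and 27.3% to 51.3%). The median depth was 1705 UMIs per B cell under αPD-1 alone and 1335 under αPD-1 + corin. Monocytes and macrophages, which should lack Ighd, were deeper (medians of 3700 and 3395 UMIs). An Ighd UMI was found there in 3.77% ± 0.987 and 0.618% ± 0.175 of cells. The part of RNA from other cells in the Ighd UMIs of B cells was not tested.

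**Figure D3:**
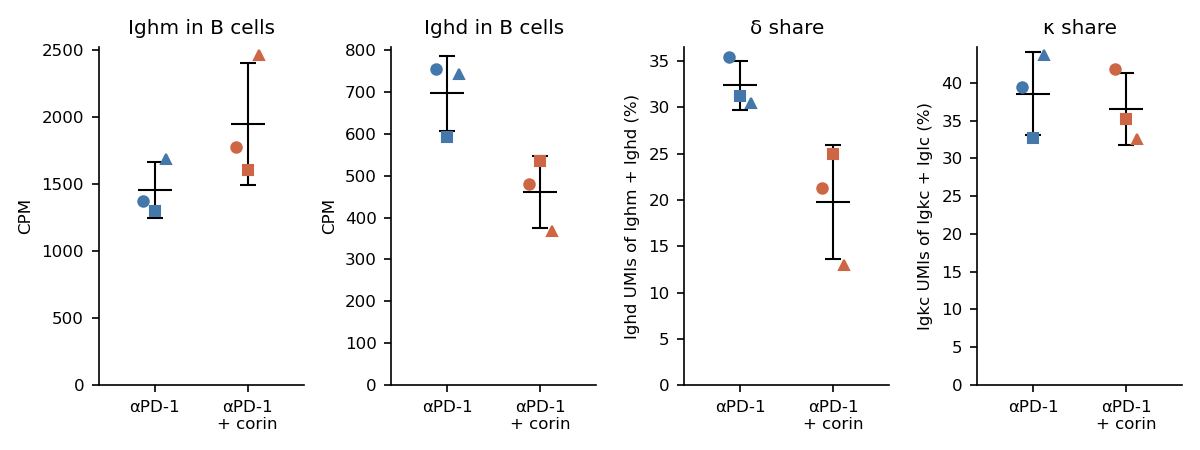
Levels of Ighm and Ighd in B cells (UMIs per 1000000 UMIs of the class), the Ighd share of Ighm and Ighd UMIs (δ share) and the Igkc share of light-chain constant UMIs (κ share). Points are the 3 samples per group, lines the mean and SD; the Ighd level and the δ share did not overlap between the groups, and Ighm and the κ share did.

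Of the members, 4 could be tested in B cells (Ighm, Ighd, Igkc and Jchain), and 0 passed the threshold of an adjusted p of 0.05 with edgeR or with DESeq2. Over all genes tested, 34 were called higher (0.425%) and 120 lower (1.5%) under αPD-1 + corin. Without adjustment, 2 of the 4 members (Ighd and Jchain) had a p under 0.05, as did 1122 of the 8001 genes. The other 5 members had too few UMIs for the filter on low counts.

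Switched transcripts were a small part of the heavy-chain UMIs of B cells and spread unevenly over cells. Ighg1, Ighg2b, Ighg2c, Ighg3 and Igha together gave 516, 39 and 356 UMIs in the B cells of the αPD-1 samples, or 12.5%, 1.22% and 5.93% of the heavy-chain UMIs. The αPD-1 + corin samples gave 0, 2 and 1 UMIs, or 0%, 1.08% and 1.82% (exact permutation test, two-sided, p = 0.2, adjusted p = 0.35). A switched UMI was found in 132, 25 and 108 B cells of the αPD-1 samples. A single cell of sample 1 held 307 of its 516 UMIs, the highest cells of samples 2 and 3 held 6 and 68, and 15 B cells of samples 1 and 3 held 10 or more. Ighg1 by itself stood at 260, 4.81 and 51.3 CPM under αPD-1 alone and had no UMI under αPD-1 + corin, which makes the αPD-1 mean at least 5.80-fold higher against a floor of 3 counts over the αPD-1 + corin group. Without αPD-1 sample 1 that bound came down to 1.54-fold, and the level in sample 2 was itself below the floor. For Ighg2c, with 21.2, 5.41 and 74.1 CPM against 0, the bound was 1.85-fold, but without αPD-1 sample 3 the mean of 13.3 CPM was below the floor and left no bound. The means of Ighg2b and Ighg3 under αPD-1 alone, 10.3 and 5.12 CPM, were below the floor of 18.2 CPM, so that a difference was not detectable at this depth. Igha stood at 8.24, 4.81 and 4.31 CPM and at 0, 23.3 and 52.5 CPM, the last 2 from 2 UMIs and 1 UMI.

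Jchain in B cells stood at 37.1, 16.2 and 30.1 CPM under αPD-1 alone, from 63, 27 and 70 UMIs. No Jchain UMI was found in B cells of the αPD-1 + corin samples. This makes the αPD-1 mean at least 1.53-fold higher against the same floor, with an edgeR adjusted p of 0.105. That bound was 1.28- to 1.85-fold when 1 αPD-1 sample was left out, and the level in sample 2 was itself below the floor. Plasma cells are the class with by far the most Jchain, and B cells held 0.845 to 1.52 Jchain UMIs per 100 heavy-chain UMIs under αPD-1 alone against 30.9 to 39.5 in plasma cells. The part of RNA from plasma cells in the switched and Jchain UMIs of B cells was not tested.

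Igkc, the κ constant gene, did not differ between the groups in B cells beyond its error. It stood at 1284, 995 and 1405 CPM under αPD-1 alone and at 1311, 1130 and 1416 CPM under αPD-1 + corin (log2 fold change -0.07 ± 0.182 SE, edgeR adjusted p = 0.928). As a share of Igkc and Iglc UMIs it was 39.5%, 32.6% and 43.6% under αPD-1 alone and 41.8%, 35.1% and 32.5% under αPD-1 + corin (exact permutation test, two-sided, p = 0.7, adjusted p = 0.8). In plasma cells of the αPD-1 samples the same share was 90.0%, 91.7% and 91.6%. The λ constant genes Iglc2 and Iglc3, which are no members, were of the same order as Igkc in B cells, at 1097 ± 67.7 and 735 ± 43.9 CPM under αPD-1 alone (SD, n = 3).

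This share did not match the V genes that the B cells used. By V gene, with at least 3 light-chain V UMIs and 90% of them from 1 type, 1678 of 1740 called αPD-1 B cells were κ and 62 were λ (3.56%, 95% Wilson interval 2.79 to 4.54). Of the αPD-1 + corin B cells, 78 were κ and 4 were λ. The κ-called αPD-1 B cells held on average 3.43 Igkc UMIs beside 2.94 Iglc2 and 2.02 Iglc3 UMIs, and 1575 of 1678 (93.9%) had at least 1 Iglc UMI. The λ V genes gave only 13.1 to 18.9 UMIs per 100 Iglc UMIs in B cells of the αPD-1 samples, whereas the κ V genes gave 255 to 406 per 100 Igkc UMIs. In plasma cells of the αPD-1 samples 246 of 246 called cells were κ by V gene, and 32 further cells mixed both types. The origin of Iglc UMIs without λ V UMIs was not tested, and the κ share of constant UMIs is therefore not a share of κ cells.

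Few genes of the lists around the members were called in B cells. On simulated B cell counts the fit recovered 20% of genes changed by 1 on the log2 scale. A small number of calls therefore does not show that a list was unchanged. Of the antibody secretory machinery, which folds and exports immunoglobulin, 0 of 24 tested genes passed in either direction (median log2 change -0.25, against -0.19 over all genes tested). Among 22 genes of the B cell receptor complex and its signalling, 1 fell and the median log2 change was -0.32: Ptpn6, a phosphatase that restrains receptor signals, at 318, 306 and 289 CPM under αPD-1 alone and 66.4, 198 and 105 CPM under αPD-1 + corin (log2 -1.2 ± 0.309 SE, edgeR adjusted p = 0.0137). None of 4 tested λ and surrogate light-chain genes (median 0.22) and none of 4 tested germinal centre genes (median -0.58) passed.

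Of 11 tested genes of B cell activation, 3 rose under αPD-1 + corin and 0 fell (median log2 change -0.17). Cd86, a costimulatory ligand, stood at 187, 159 and 201 CPM under αPD-1 alone and at 465, 408 and 367 CPM under αPD-1 + corin (log2 1.14 ± 0.234 SE, edgeR adjusted p = 0.000313). Ccr7, a lymph node homing receptor, stood at 194, 172 and 147 CPM against 365, 396 and 210 CPM (log2 1.02 ± 0.246 SE, adjusted p = 0.00569), and the third, named after its values were seen, was Cd69, an early activation marker, with a mean of 347 CPM against 817 CPM (log2 0.95 ± 0.2 SE, adjusted p = 0.000516). Markers of other cells were measured in the same B cells. The 9 neutrophil markers, led by S100a8 and S100a9, summed to 38.9, 21.6 and 31.4 CPM under αPD-1 alone and to 780, 991 and 0 CPM under αPD-1 + corin, and 8 of the 9 had a higher mean there. The 11 markers of conventional dendritic cells, Ccr7 among them, summed to 1212, 1168 and 1068 CPM and to 1129, 1212 and 1049 CPM. Flt3, Ccr7 and Fscn1 had a higher mean under αPD-1 + corin, and the other 8 had a lower one. Of the 11, 5 had no UMI there, among them Xcr1, Clec9a and Cd209a. These 3 stood at 1.77 to 5.60 CPM under αPD-1 alone, below the floor of 18.2 CPM, so that a fall was not detectable. In αPD-1 + corin sample 3, with 11 B cells, no neutrophil marker had a UMI. Its Cd86 level was 367 CPM, and its Ccr7 level of 210 CPM came from 4 UMIs. The part of neutrophil or dendritic cell RNA in the activation genes was not tested.

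Among all genes called in B cells, the 3 highest under αPD-1 + corin by log2 fold change included 1 immunoglobulin gene. Igkv14-126, a κ V gene, stood at 17.1, 10.2 and 15.9 CPM under αPD-1 alone and at 266, 0 and 892 CPM under αPD-1 + corin, so that 1 of these 3 samples had none. Lamp3, a lysosomal membrane gene that mature dendritic cells also express, had means of 6.05 and 65.5 CPM, with 33.2, 58.3 and 105 CPM in the αPD-1 + corin samples. Il1b, an inflammatory cytokine that was also among the 10 leading genes of a neutrophil cluster, had means of 21.8 and 91.5 CPM, with 99.6, 175 and 0 CPM in these samples. In αPD-1 + corin sample 3, 3 counts made 157 CPM. Its Lamp3 value lay below that level, and its Il1b value of 0 does not show that Il1b was absent. The 3 lowest, the κ V gene Igkv3-2, Sergef and Cers6, had means of 85.6, 67.1 and 52.2 CPM under αPD-1 alone and no UMI in the αPD-1 + corin B cells. A V gene in so few B cells can rest on 1 or a few cells.

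Ighm was not restricted to B cells and plasma cells. Plasmacytoid dendritic cells, which arise in part from lymphoid progenitors, held it at 834, 606 and 896 CPM under αPD-1 alone and at 819, 736 and 741 CPM under αPD-1 + corin. The means of 779 ± 152 and 765 ± 46.6 CPM (SD, n = 3) lay within each other's spread. An Ighm UMI was found in 82.3% ± 3.24 and 83.9% ± 2.90 of these cells, with a median of 3954 and 2805 UMIs per cell. After thinning to 1000 UMIs the shares were 51.9% ± 4.41 and 50.9% ± 6.48.

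This Ighm was unlike that of B cells in its partners. Ighd made up 3.41%, 6.53% and 6.91% of Ighm and Ighd UMIs in plasmacytoid dendritic cells of the αPD-1 samples and 1.23%, 0.263% and 0.901% under αPD-1 + corin. Heavy-chain V genes gave 10.6, 9.14 and 7.43 UMIs per 100 Ighm UMIs under αPD-1 alone and 0, 0 and 0.455 under αPD-1 + corin, against 80.8, 90.1 and 46.1 and 43.0, 70.3 and 34.0 in B cells of the same samples. Igkc was present, at 282 ± 24.0 and 253 ± 6.29 CPM, and Iglc3 stood at 532 ± 74.2 and 654 ± 178 CPM with at most 2.90 λ V UMIs per 100 Iglc UMIs. Ighg2b and Ighg3 had no UMI in this class in any sample. Under αPD-1 + corin few V gene UMIs beside Ighm were not particular to this class. Among cells with under 10 UMIs of the members, monocytes and macrophages had 9.99, 4.14 and 3.49 per 100 Ighm UMIs there. Conventional dendritic cells had 4.64, 10.3 and 0.966, and T cells and NK cells 3.92, 6.49 and 2.37. Under αPD-1 alone the same classes had 18.1 to 55.3, 22.8 to 33.0 and 17.8 to 54.1, against 2.60 to 10.4 in plasmacytoid dendritic cells. The Ighd share in such monocytes and macrophages was 14.3%, 6.68% and 10.5% under αPD-1 alone and 6.16%, 3.97% and 2.27% under αPD-1 + corin. B cells made up 17.7% to 24.8% of kept cells under αPD-1 alone and 0.233% to 1.22% under αPD-1 + corin. The source of the Ighm UMIs in plasmacytoid dendritic cells was not tested.

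**Figure D4:**
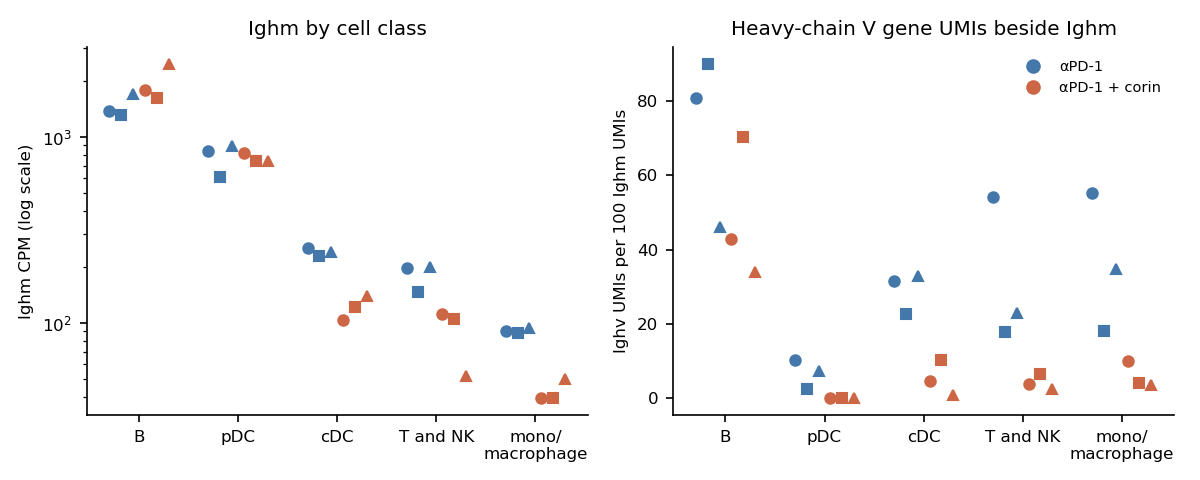
Left, Ighm level by cell class and sample (UMIs per 1000000 UMIs of the class, log scale). Right, heavy-chain V gene UMIs per 100 Ighm UMIs, with cells of 10 or more UMIs of the members left out in all classes but B cells; plasmacytoid dendritic cells (pDC) held Ighm at a like level in all 6 samples, with 0 V gene UMIs beside it in the 3 αPD-1 + corin samples after that step. cDC, conventional dendritic cells.

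Conventional dendritic cells, T cells and NK cells, and monocytes and macrophages each held less Ighm than plasmacytoid dendritic cells and less of it under αPD-1 + corin. Conventional dendritic cells held Ighm at 252, 227 and 240 CPM under αPD-1 alone and at 104, 122 and 140 CPM under αPD-1 + corin. T cells and NK cells held it at 196, 147 and 199 CPM and at 112, 105 and 51.9 CPM. Monocytes and macrophages, which make no immunoglobulin, held it at 90.5, 88.2 and 94.0 CPM and at 39.4, 39.4 and 50.3 CPM. The groups did not overlap in any of these 3 classes. The share of all genes without overlap was not counted there, so that this is no result about Ighm. Neutrophils, with only 20, 17 and 20 cells under αPD-1 alone, held it at 357, 189 and 969 CPM and at 105, 88.9 and 79.1 CPM.

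Monocytes and macrophages, the class with most cells, were tested as cells that make no immunoglobulin. They were planned as a measure of free RNA, which comes from other cells, in each sample. The source of their Ighm and Ighd UMIs was not tested. Ighm was lower (log2 -0.94 ± 0.123 SE, edgeR adjusted p = 0.0341). Ighd stood at 22.3, 8.14 and 14.5 CPM under αPD-1 alone and at 2.80, 1.63 and 1.25 CPM under αPD-1 + corin and fell by 2.70 ± 0.425 on the log2 scale (SE, adjusted p = 0.049). Of 5 members tested, these 2 were called, against 20 of 12000 genes called lower (0.167%) and 21 higher (0.175%). Both calls were lost in 5 of the 6 fits that left out 1 sample, with adjusted p of up to 0.202 for Ighm and 0.231 for Ighd without αPD-1 replicate 1, and without cells that held 10 or more UMIs of the members (0.0699 and 0.096). Different clusters made up this class in the groups: the cluster led by Ppbp and Ccl24 held 30, 15 and 48 cells of the αPD-1 samples and 1501, 399 and 19 of the αPD-1 + corin samples.

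Igkc in monocytes and macrophages was at 85.0, 24.4 and 143 CPM under αPD-1 alone and at 12.5, 2.04 and 3.06 CPM under αPD-1 + corin (adjusted p = 0.108). Ighg1 was at 40.4, 9.40 and 159 CPM against 12.4, 0 and 0 CPM (adjusted p = 0.198), and Jchain at 19.3, 0.627 and 39.5 CPM against 3.25, 0 and 0 CPM (adjusted p = 0.199). Over all 9 members the class held 2.99, 1.33 and 4.77 UMIs per 10000 under αPD-1 alone and 0.706, 0.431 and 0.546 under αPD-1 + corin, without overlap (exact permutation test, two-sided, p = 0.1, adjusted p = 0.233). A few cells gave much of this: 38 of 1179 cells in αPD-1 sample 3 held 1670 of its 2233 UMIs of the members. Without cells of 10 or more such UMIs the values were 1.89, 1.02 and 1.27 against 0.470, 0.431 and 0.519.

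The switched share of the UMIs in these low cells differed between samples. Switched genes made up 34.1%, 3.75% and 17.8% of the heavy-chain UMIs in such monocytes and macrophages of αPD-1 samples 1, 2 and 3, and 0.134%, 0% and 0% under αPD-1 + corin. T cells and NK cells showed the same order, with 22.6%, 4.11% and 11.5% and then 0%, 0.417% and 0.450%. Melanoma cells left in the preparation held 0.354, 3.22 and 1.70 UMIs of the members per 10000 under αPD-1 alone and 0.0366, 0.0966 and 0.0687 under αPD-1 + corin (exact permutation test, two-sided, p = 0.1, adjusted p = 0.233), and without cells of 10 or more UMIs the αPD-1 values were 0.354, 0.657 and 0.278. Their switched shares, from 15, 12 and 17 heavy-chain UMIs, were 73.3%, 75% and 29.4% in αPD-1 samples 1, 2 and 3. The source of the switched UMIs in these classes was not tested. In T cells and NK cells the groups overlapped, with 6.91, 2.22 and 3.61 against 9.25, 1.26 and 0.662 (p = 0.8, exact permutation test). A single cell held 716 of the 842 such UMIs of αPD-1 + corin sample 1, where the class had 381 Igha UMIs. Without cells of 10 or more such UMIs the values were 3.59, 2.0 and 3.03 against 1.40, 1.26 and 0.627, and the groups then did not overlap.

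**Figure D5:**
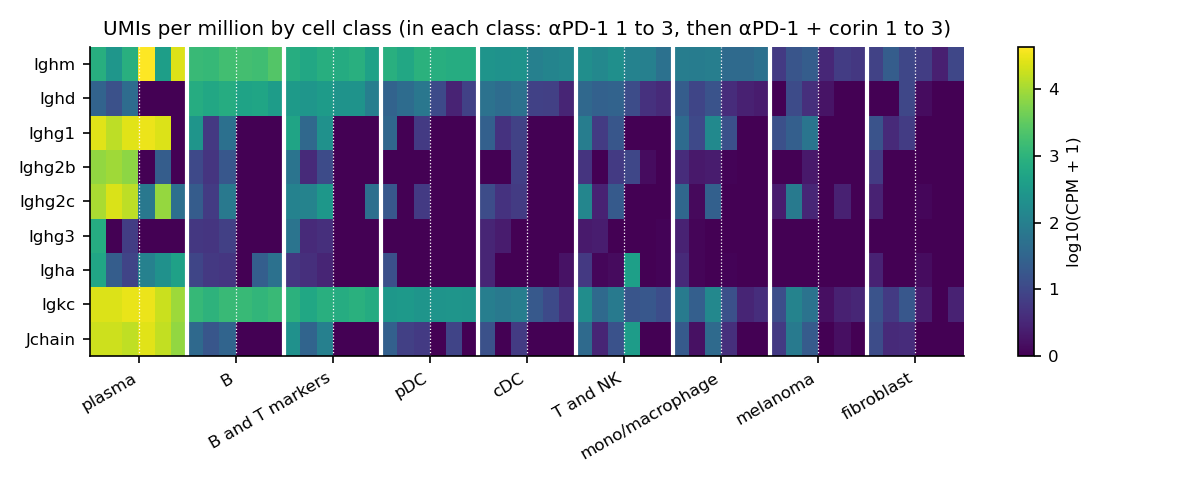
Level of the 9 members in 9 cell classes, as log10(CPM + 1). Each class has 6 columns, αPD-1 samples 1 to 3 left of the dotted line and αPD-1 + corin samples 1 to 3 right of it; plasma cells show the switched genes, Igkc and Jchain, B cells show Ighm, Ighd and Igkc, and plasmacytoid dendritic cells (pDC) show Ighm and Igkc in all 6 samples. The columns of αPD-1 + corin plasma cells hold 2 to 4 cells each.

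Over all kept cells the members were lower under αPD-1 + corin. In such sums fewer cells of a type and less RNA per cell cannot be told apart. Ighm stood at 435, 302 and 525 CPM under αPD-1 alone and at 88.0, 88.8 and 83.4 CPM under αPD-1 + corin (log2 -2.18 ± 0.217 SE, edgeR adjusted p = 0.00838). Ighd stood at 149, 103 and 185 CPM against 5.86, 7.37 and 2.11 CPM (log2 -4.72 ± 0.53, adjusted p = 0.0106). Igkc stood at 2919, 659 and 2217 CPM against 44.4, 67.8 and 20.4 CPM (log2 -5.34 ± 0.765, adjusted p = 0.0158). Jchain stood at 2052, 362 and 960 CPM against 34.6, 37.2 and 7.00 CPM (log2 -5.30 ± 0.95, adjusted p = 0.0241).

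The IgG genes and Igha are made by few cells and varied widely between samples. Ighg1 stood at 2978, 289 and 1716 CPM under αPD-1 alone and at 33.4, 55.4 and 0 CPM under αPD-1 + corin (adjusted p = 0.0802). Ighg2c stood at 1249, 451 and 978 CPM against 0.0902, 18.1 and 0.135 CPM (adjusted p = 0.0558). Ighg2b, at 831, 180 and 427 CPM, came down to 10, 2 and 0 UMIs (log2 -11.47 ± 1.03, adjusted p = 0.00732). Ighg3, at 90.2, 1.2 and 1.86 CPM, came down to 0, 0 and 1 UMI (adjusted p = 0.0497), and this call was lost in each of the 6 fits that left out 1 sample. Igha, at 61.8, 1.44 and 1.56 CPM against 11.7, 0.597 and 0.538 CPM, did not pass (adjusted p = 0.389), and its direction turned without αPD-1 replicate 1, to a log2 change of 1.64.

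In all, 6 of the 9 members were called lower over all kept cells and 0 higher, against 1452 of 15676 genes called lower (9.26%) and 1072 higher (6.84%). Without αPD-1 replicate 1 only 1 member remained past the threshold, and without αPD-1 replicate 3 there were 3, with all but Igha in the same direction. Values over all kept cells for Ighm, Ighd, Ighg1, Ighg2b, Ighg2c, Ighg3, Igkc and Jchain did not overlap between the treatments. The share of all tested genes without overlap was not counted, so that this is no result about the members.

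Genes with a pattern like that of a member over cell classes were described by the correlation of log2(CPM + 1) over 33 sums (11 classes in each of the 3 αPD-1 samples), among 10512 genes. Sums of 1 sample share a library, and the classes differ in depth. Closest to Ighm were Blnk, a B cell receptor adaptor (r = 0.954), Cd69 (0.953) and Cd79b (0.939), and closest to Ighd were H2-Ob (0.977), Ms4a1 (0.976) and Fcmr, the IgM Fc receptor (0.969). Igkc was closest to Mzb1, an endoplasmic reticulum chaperone of antibody-making cells (0.945), Gm30211 (0.911) and Pou2af1 (0.903), and Jchain to Txndc11 (0.9), 4933404K13Rik (0.884) and Eaf2 (0.872). Ighg1 lay nearest to Cacna1h (0.87), Eaf2 (0.859) and Bhlha15 (0.852), Ighg2b to 4933404K13Rik (0.944), Oosp1 (0.935) and Txndc11 (0.926), and Ighg2c to Eaf2 (0.869), 4933404K13Rik (0.861) and Derl3 (0.857). Igha, with few cells, was nearest to Mzb1 (0.745), 4933404K13Rik (0.721) and Gm30211 (0.717), and Ighg3 had no close match (0.607 with Sfn, 0.566 with 4933404K13Rik and 0.565 with Txndc11).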

How the data were processed

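Gene expression of single cells was measured in 6 samples, 3 per treatment, with the 10x GEM-X 5′ chemistry and a second read of 90 bases. The authors made the deposited counts, which are raw UMI counts per gene and barcode with no normalization, with Cell Ranger 8.0. The build was taken as GRCm39, and 31674 of the 32285 gene identifiers were found in GENCODE vM39. Groups came from the sample labels, and nothing in the labels ties a sample to separate mice, so p-values measure the spread between these samples, which may be technical. The members and gene lists were chosen with earlier results of these data known.

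Barcodes with 600 to 4000 genes, at most 10% mitochondrial UMIs and no doublet call (Scrublet in scanpy 1.11.5, a rate of 0.4% per 1000 barcodes, 2002 removed) were kept. They were clustered with Seurat 5.3.0 (SCTransform, 20 principal components, resolution 0.8, 26 clusters) without 394 immunoglobulin genes and Jchain, and clusters were named from marker genes. Sums of UMIs over the cells of a class in a sample entered edgeR 4.0.16 (TMM factors, filterByExpr, quasi-likelihood, Benjamini-Hochberg adjustment) in R 4.3.3, with DESeq2 1.42.0 as an alternative. The 7 single values were tested with exact two-sided permutation tests. On simulated counts for B cells (7684 genes) the fit recovered 20% of genes changed by 1 and 57.7% of those changed by 2 on the log2 scale, and for all kept cells (15387 genes) 11.6% and 68.8%. Other settings, some chosen after seeing the data, are given in the closing section. Intervals and limits for a count of 0 cover counting error only.

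All members were named in every comparison. Of each gene list, the 2 genes with the largest log2 change in each direction among those past an adjusted p of 0.05 were named, and for B cells the 3 highest and 3 lowest of all genes past it whose higher group reached 20 CPM. Results for some genes are not reported here. The 3 genes most like each member had at least 20 CPM in 1 class.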

Additional observations from a re-analysis of the deposited data

Results flagged for a closer look

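Barcodes outside the filters held immunoglobulin that the comparisons of plasma cells did not use. At least 100 heavy-chain constant UMIs were found in 103, 14 and 48 such barcodes of the αPD-1 samples, above 0, 1 and 0 in the αPD-1 + corin samples. Of the 156 αPD-1 barcodes among them that could be called, 88 were Ighg1 (56.4%), 44 were Ighg2c (28.2%) and 16 were Ighg2b (10.3%).

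A cluster with plasma cell markers and a median of 1424 UMIs was left unnamed and out of the plasma cells. It held 79, 9 and 15 cells of the αPD-1 samples and 2, 0 and 0 of the αPD-1 + corin samples. Only 9 of its 103 αPD-1 cells could be given an isotype, 4 Ighg1 and 5 Ighg2c.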

How the results depend on the processing

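The fall of the Ighd share in B cells kept its direction in all 17 alternatives. The number of members called in B cells, 0 as reported, was 2 with no filter on low counts, 1 with no upper limit on genes, 1 with LogNormalize, 4 with a gate on marker UMIs in place of clusters, and 0 to 1 when 1 sample was left out. In monocytes and macrophages it was 7 with no filter, 1 with the replicate block, with no doublet removal, at resolution 0.4 or 1.2, with immunoglobulin genes kept in clustering and with the gate, 0 with LogNormalize, 0 without cells of 10 or more UMIs of the members (chosen after seeing the data), and 0 to 4 with 1 sample left out. Over all kept cells it was 1 to 7 with 1 sample left out. All genes called in B cells numbered 64 with the replicate block, 248 with no normalization factors, 98 with no doublet removal, 96 and 75 at the lower and higher resolution, 5336 with the gate and 64 to 137 with 1 sample left out, against 154. In monocytes and macrophages they numbered 297 with DESeq2, 807 with no filter, 22 with the replicate block, 6 with LogNormalize, 24 without cells of 10 or more UMIs and 2 to 2378 with 1 sample left out, against 41. Over all kept cells they numbered 4257 with DESeq2, 468 with the replicate block, 618 with no upper limit on genes, 1485 without cells of 10 or more UMIs and 58 to 5068 with 1 sample left out, against 2524. The cause of these shifts was not tested. Replicate numbers are shared between the groups, but deviations of samples with the same number correlated at -0.142 to 0.063, so that the numbers do not pair the samples.

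Direction turned as follows. The difference in κ share was 4.03 percentage points with the gate and -5.04 to 0.443 with 1 sample left out. The members' UMIs per 10000 in T cells and NK cells differed by 1.13 with no upper limit on genes and by -3.29 to 1.00 with 1 sample left out, with 0.806, 0.706 and 1.00 as the turned values. Thinning turned the difference in cells with an Ighm UMI to 4.88 percentage points in B cells and -1.07 in plasmacytoid dendritic cells. On the log2 scale, Ighm in B cells was -1.73 with the gate, and Igkc in B cells was 0.019 with no normalization factors, 0.11 with no doublet removal, 0.033 and 0.034 at the lower and higher resolution, 0.029 with immunoglobulin genes kept, and -0.17 to 0.16 with 1 sample left out. Jchain in monocytes and macrophages was 0.14 with LogNormalize, and Igha over all kept cells was -5.163 to 1.635 with 1 sample left out, the highest without αPD-1 replicate 1. With no upper limit on genes no separate plasma cluster formed, so no isotype shares were had, and the gate gave no values for T cells, NK cells or melanoma cells. The depth of αPD-1 + corin B cells limited every switched gene there.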
